A study of Mus musculus with 24 samples.

Results

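The cytosolic ribosomal protein genes, called RP genes here, were taken from the expression tables by symbol: every gene named Rpl or Rps with a number and at most a closing a, x, y or l, together with Rplp0, Rplp1, Rplp2 and Rpsa, and without pseudogenes and the Rps6k kinases. This gave 82 of the 25135 genes listed, and 79 of the 82 averaged 1 FPKM or more over the 12 libraries of an age and were tested, at P1 and at P30 alike. FPKM counts fragments per kilobase of transcript, scaled to the number of fragments mapped in a library. The RNA was that of cortical nuclei sorted for the SUN1-GFP reporter, a green fluorescent protein fused to a nuclear envelope protein, which marked the Emx1 lineage, the dorsal telencephalic progenitors and the glutamatergic neurons, astrocytes and part of the oligodendrocytes that come from them. WT mice carried Kdm6b wt/wt and Kdm6b-cKO mice carried Emx1-Cre with Kdm6b f/f, so that the gene for this histone H3K27 demethylase was deleted where Cre is active under the control of Emx1. All lines had the SUN1-GFP reporter and a C57BL/6 background, and the genotypes were littermates. The paper does not list Cre in the WT genotype, but GFP-positive nuclei were sorted from both genotypes. Mice were at postnatal day 1 (P1) or 30 (P30), with 6 libraries for each genotype and age and 24 libraries in all, numbered 0 to 5 within each group. The labels do not say that each library came from a separate animal, so the p-values measure the spread between these libraries, which may be technical in part.

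Ribosomal proteins join the ribosomal RNAs in the nucleolus to form the small (RPS) and the large (RPL) subunit, while Rplp0, Rplp1 and Rplp2 form the stalk of the large subunit that recruits the translation factors. Their mRNAs are short and among the most abundant of a cell, most begin with a stretch of pyrimidines (the 5′ terminal oligopyrimidine, or TOP, motif) that couples their translation to mTOR signalling, and they are translated in the cytoplasm. In nuclei they are therefore seen as newly made or not yet exported transcripts, along with cytoplasmic RNA that stays attached during isolation. Rn45s is the precursor of the 18S, 5.8S and 28S ribosomal RNAs, which RNA polymerase I transcribes in the nucleolus.

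The annotated start sites showed how the RP genes resemble each other in sequence. Promoters from RefSeq (build GRCm38.p6, 250 bases before to 50 after the annotated start) were matched by symbol for 61 of the 82 genes. A C at the annotated first base followed by at least 4 bases that are C or T was found in 14 of the 61 (23.0%), against 3.01% of the 27025 genes with a promoter. The letters CGGAAG, the core of ETS factor sites, stood on either strand in 41 of the 61 (67.2%), against 18.8% of all genes. AAGATGG, the core of YY1 sites, stood in 9 of the 61 (14.8%) against 7.28%, and CTTTCC, which overlaps many pyrimidine starts, in 32 (52.5%) against 29.3%. The windows below run from 15 bases before to 15 bases from the annotated start and are shown for genes that the genotype comparison turns on. Capitals mark the run of C and T through the annotated first base, which is the 16th letter, and there are none where that base is A or G.
Rpl35, chr2:39005117-39005146, minus strand: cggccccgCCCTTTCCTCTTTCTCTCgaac
Rpl38, chr11:114668565-114668594, plus strand: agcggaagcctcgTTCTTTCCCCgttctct
Rps6, chr4:86857353-86857382, minus strand: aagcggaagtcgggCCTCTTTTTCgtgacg
Rpl7a, chr2:26910792-26910821, plus strand: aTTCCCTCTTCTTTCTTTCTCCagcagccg
Rps12, chr10:23787195-23787224, minus strand: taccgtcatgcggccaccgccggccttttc
Rpl37, chr15:5116598-5116627, plus strand: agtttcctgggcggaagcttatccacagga
Rps25, chr9:44407699-44407728, plus strand: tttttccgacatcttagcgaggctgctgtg
Rpl37a, chr1:72711245-72711274, plus strand: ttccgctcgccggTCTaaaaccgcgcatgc
The first 4 had long pyrimidine runs through the annotated start, whereas Rps12 and Rpl37 had an A there. Rpl7a had a T as its annotated first base, so it is not among the 14. Where transcription began in these nuclei was not tested. At P1 the median log2 fold change was 0.97 over the 14 tested genes with the pyrimidine start and 0.93 over the 44 matched and tested genes without it. These are descriptions of letters in a window.

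Library depth, Rn45s and the targeted gene were examined before the genotypes were compared. The effective depth, estimated from the steps between low FPKM values, ran from 190000 to 3890000 reads at P1 and from 1940000 to 8300000 at P30. Kdm6b was 37.8 ± 11.3 FPKM (SD, n = 6) in WT and 29.0 ± 9.67 in Kdm6b-cKO at P1 (exact two-sided permutation p = 0.190), and 21.6 ± 4.08 and 23.4 ± 4.36 at P30 (p = 0.446). The value is for the whole gene, so exons outside the deleted part count too, and it did not tell the labels apart. In the paper, quantitative RT-PCR on sorted SUN1-GFP nuclei gave a strong reduction of Kdm6b mRNA in Kdm6b-cKO. WT and Kdm6b-cKO below name libraries by their labels. At P1 the libraries split by olfactory receptor transcripts, which the labels do not name: WT libraries 2 to 5 and Kdm6b-cKO library 5 had 397 to 794 olfactory receptor genes above 0, and the other 7 had 2 to 22. At P30, WT library 0 and Kdm6b-cKO libraries 0, 1 and 5 had 175 to 450 FPKM of Rn45s, and the other 8 had 1629 to 25878 FPKM.

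**Figure D1:**
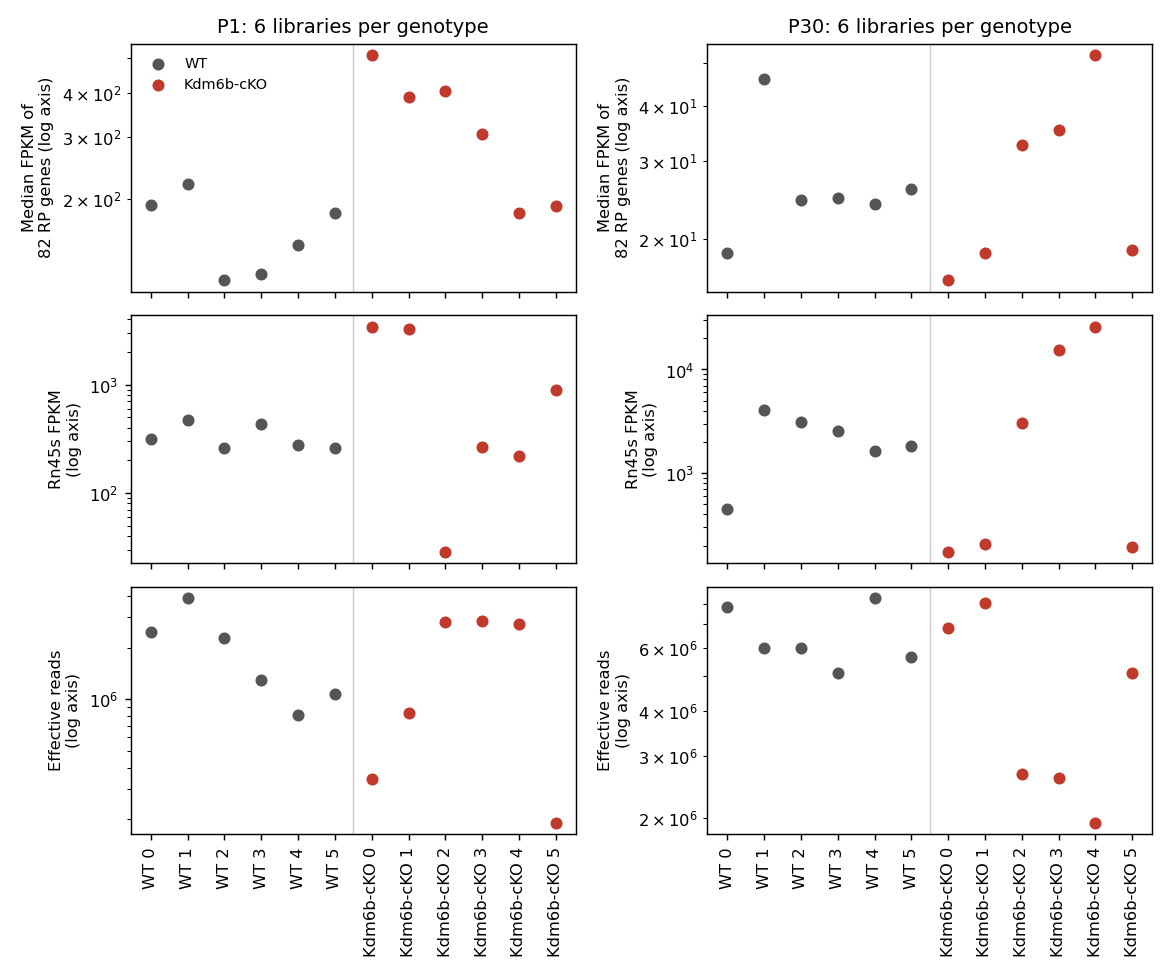
Median FPKM of the 82 RP genes (top), FPKM of Rn45s (middle) and effective reads (bottom), each on a log axis, for every library of P1 (left) and P30 (right); each point is a library, grey for WT and red for Kdm6b-cKO. At P1 Kdm6b-cKO libraries 0 to 3 lie above the 6 WT libraries in the top row, and at P30 the genotypes overlap and the libraries low in Rn45s are low in RP genes.

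At P1, RP genes were higher in the nuclei labelled Kdm6b-cKO as a group, in 4 of the 6 libraries. The median FPKM over the 82 genes was 192, 220, 118, 122, 148 and 182 in WT libraries 0 to 5, and 511, 388, 403, 305, 183 and 191 in Kdm6b-cKO libraries 0 to 5. Kdm6b-cKO libraries 0 to 3 thus lay above every WT library, while libraries 4 and 5 lay within the WT range. The RP genes made up 3.10% to 4.81% of the summed FPKM of a WT library and 3.82% to 8.82% of a Kdm6b-cKO library. In the fit across all 16250 genes tested (limma on log2(FPKM + 0.1)), the median log2 fold change of the 79 RP genes was 0.99, a 1.98-fold higher level, against -0.25 for all genes. The log2(FPKM + 0.1) scale understates the change of low genes.

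Gene by gene, 76 of the 79 were higher in Kdm6b-cKO, against 36.8% of all genes tested, and 67 were higher with an unadjusted limma p under 0.05, against 6.7% of all genes. The other 3 were lower, against 63.2% of all genes. Shares were larger among the 463 other genes with coding transcripts under 1000 bases and a mean of 50 FPKM or more. Of these, 86.8% were higher, and 41.3% were higher with an unadjusted limma p under 0.05. A single RP gene, Rpl32l, was lower with an unadjusted p under 0.05, against 7.77% of all genes. None passed an adjusted p of 0.05 by limma with Benjamini-Hochberg adjustment, and neither did any other gene at this age (0.0% in each direction); the smallest adjusted p among the RP genes was 0.178. More than 2-fold higher were 37 RP genes, against 4.18% of all genes, and more than 2-fold lower was 1, Rpl32l, against 20.4%. In 3 of them, Rpl7a, Rps3 and Rps6, all 6 Kdm6b-cKO libraries were above all 6 WT libraries, against 0.603% of all genes, and in none were all 6 below, against 0.683%. In 53 of the 79 exactly 4 Kdm6b-cKO libraries exceeded the highest WT library. A change in the number of cells of a type and a change in RNA per cell cannot be told apart in such bulk samples.

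Both subunits and the stalk had like values. The median log2 fold change was 0.99 over the 43 large subunit genes, of which 42 were higher, 0.98 over the 30 small subunit genes, of which 29 were higher, and 0.94 over the 3 stalk genes, all higher. The interquartile range over the 79 genes was 0.81 to 1.10. The spread between libraries was wider in Kdm6b-cKO, where the median coefficient of variation of an RP gene was 46.5%, against 27.8% in WT. Kdm6b-cKO library 0 held the highest value of 44 RP genes and library 2 that of 25, while WT library 3 held the lowest of 41 and WT library 2 that of 24.

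**Figure D2:**
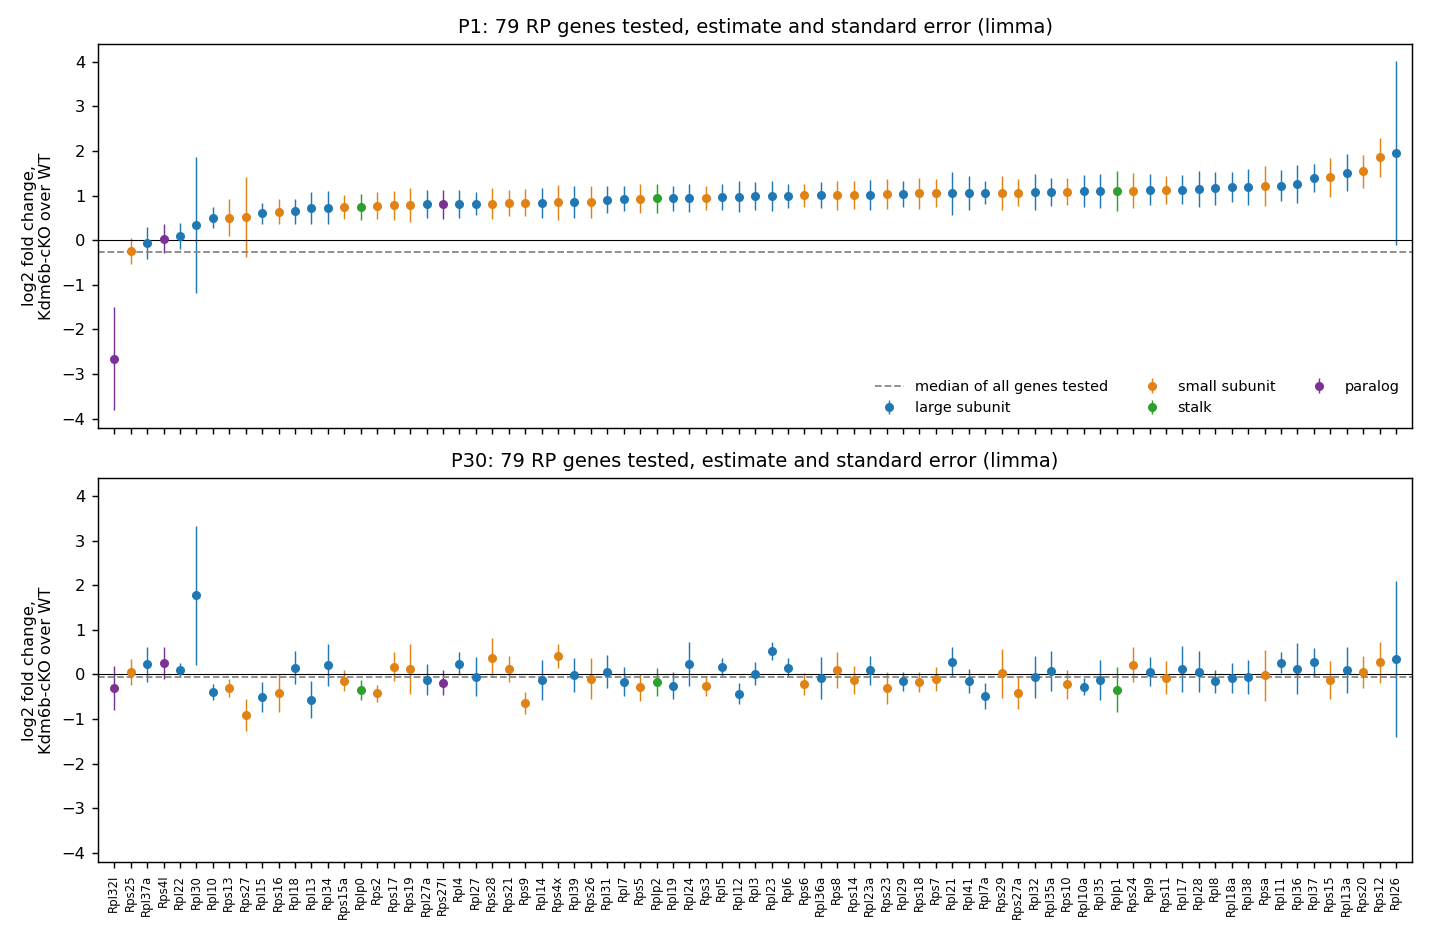
Log2 fold change of Kdm6b-cKO over WT for the 79 RP genes tested, at P1 (top) and P30 (bottom), in the order of the P1 values; points are limma estimates, bars are standard errors, colours give the subunit and the dashed line is the median of all genes tested. At P1, 76 of 79 points lie above 0 around a median of 0.99, and at P30 they lie on both sides of 0 around -0.05.

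Depth, Rn45s and the olfactory receptor signal ran beside the RP level at P1 in the following way. Kdm6b-cKO libraries 0 and 1, with RP medians of 511 and 388 FPKM, had 3423 and 3239 FPKM of Rn45s and 343000 and 833000 effective reads. Libraries 2 and 3, with RP medians of 403 and 305 FPKM, had 28.7 and 267 FPKM of Rn45s and 2810000 and 2840000 reads, so high RP levels stood with both low and high Rn45s. The WT libraries had 259 to 476 FPKM of Rn45s, and Rn45s itself did not differ between genotypes beyond its spread (exact permutation p = 0.593). With log2 Rn45s as a covariate the RP median was 0.97, and without the libraries above 1000 FPKM of Rn45s it was 0.71, with 74 of 79 genes higher and 34 at an unadjusted p under 0.05, against 9.36% of all genes. Without the libraries under 500000 effective reads, Kdm6b-cKO libraries 0 and 5, it was 1.02, with 77 of 79 higher.

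The size of the difference was smaller when the split by olfactory receptor signal was taken into account. With the split as a term in the fit, the RP median was 0.61 and 22 RP genes, all among the 67, were higher at an unadjusted p under 0.05, against 4.1% of all genes. Within the 7 libraries without olfactory receptor signal (2 WT, 5 Kdm6b-cKO) the median was 0.72 and 75 of 78 genes were higher, none with an unadjusted p under 0.05 and the smallest adjusted p at 0.997. Within the 5 libraries with the signal (4 WT, 1 Kdm6b-cKO) it was 0.42, close to the 0.45 of all genes, and 61 of 81 were higher; the lone Kdm6b-cKO library was assumed to vary like the others. The 5 libraries with the signal had RP medians of 118 to 191 FPKM, and the term for the signal had a median of -0.71 over the RP genes, 75 of the 79 being lower with it. At an unadjusted p under 0.05, 33 RP genes were lower with the signal, against 5.62% of all genes. None passed an adjusted p of 0.05 by limma for this term, against 6.12% of all genes higher and 0.246% lower. None passed for log2 Rn45s in its fit either, against 3.7% of all genes higher and 5.34% lower. In that fit 1 RP gene was higher at an unadjusted limma p under 0.05, against 9.98% of all genes, and 2 were lower. The part of whatever set these libraries apart in the RP difference was not tested beyond these fits.

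**Figure D3:**
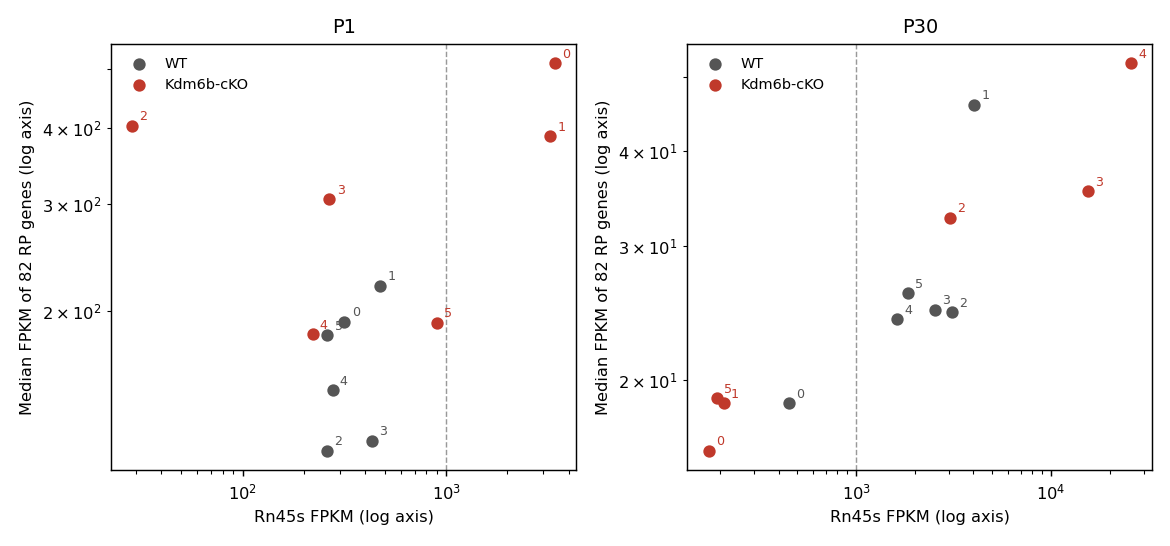
Median FPKM of the 82 RP genes against FPKM of Rn45s, both on log axes, at P1 (left) and P30 (right); each point is a library with its number, grey for WT and red for Kdm6b-cKO, and the dashed line is at 1000 FPKM. At P30 the 4 libraries left of the line have RP medians of 16.2 to 18.9 FPKM and the 8 right of it 24.1 to 52.1, whereas at P1 high RP medians stand on both sides.

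Among the large subunit genes, Rpl7a, which sits at the solvent side of the subunit and hosts snoRNAs in its introns, was higher in all 6 Kdm6b-cKO libraries. Its locus in mm9 is chr2:26766327-26768831. It ran from 76.3 through a median of 118 to 140 FPKM in WT, and from 143 through 223 to 400 in Kdm6b-cKO. The groups did not overlap, and the difference was 2.09-fold (log2 1.06 ± 0.26, standard error; exact permutation p = 0.00216, the smallest that 6 against 6 libraries allow; limma adjusted p = 0.178). Rpl37, a zinc finger protein of the large subunit (chr15:5066613-5069140), had the smallest unadjusted p of the RP genes, 0.000556. It ran from 51.8 through 77.4 to 117 FPKM in WT and from 88.6 through 227 to 300 in Kdm6b-cKO, and only Kdm6b-cKO library 4, at 88.6, lay within the WT range.

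The most abundant RP genes of the large subunit had like values. Rpl35, the highest in WT, ran from 660 through 970 to 1175 FPKM in WT and from 1027 through 2222 to 3349 in Kdm6b-cKO, where libraries 4 and 5 were both within the WT range (log2 1.10 ± 0.37, adjusted p = 0.213). Rpl41, which encodes the shortest ribosomal protein, had means of 789 ± 279 and 1729 ± 784 FPKM (SD, n = 6 each; log2 1.06 ± 0.39), and Rpl38, a protein known for its part in the translation of Hox mRNAs, had 613 ± 198 and 1530 ± 808 (log2 1.19 ± 0.41). In both of these, 4 of the 6 Kdm6b-cKO libraries were above the highest WT library.

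Among the small subunit genes, Rps6 and Rps3 had groups that did not overlap. Rps6, the substrate of the S6 kinases downstream of mTOR (chr4:86500003-86503271), ran from 68.3 through 88.3 to 105 FPKM in WT and from 109 through 184 to 302 in Kdm6b-cKO (log2 1.01 ± 0.26, exact permutation p = 0.00216, limma adjusted p = 0.180). Rps3, a protein of the mRNA entry channel (chr7:106626407-106632219), ran from 105 through 174 to 196 FPKM in WT and from 204 through 287 to 496 in Kdm6b-cKO (log2 0.96 ± 0.27). For both, Kdm6b-cKO library 2 was the highest of all 12.

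Rps12 and Rps20 had larger but more uneven differences. Rps12 was 81.5 to 163 FPKM in WT with a median of 89.1, and 86.9 to 824 in Kdm6b-cKO with a median of 425. In Kdm6b-cKO 5 of 6 libraries exceeded the WT range and library 4 was at its lower end (3.62-fold, log2 1.86 ± 0.43, unadjusted p = 0.0006). Rps20 was 12.6 to 24.0 FPKM in WT and 17.4 to 97.7 in Kdm6b-cKO (2.92-fold, log2 1.55 ± 0.36), again with library 4 alone inside the WT range. Without Kdm6b-cKO library 4, limma called 3 RP genes at an adjusted p under 0.05 and more than 2-fold higher, Rpl37, Rps12 and Rps20, against 0.145% of all genes. That library had the lowest RP median of its group, 183 FPKM, which lay within the WT range. No RP gene was called when any other library was left out. Rps29, with means of 784 ± 253 and 1753 ± 817 FPKM, was 2.09-fold higher, and Rps19, the gene mutated most often in Diamond-Blackfan anaemia, had 460 ± 164 and 856 ± 456 (log2 0.79 ± 0.38, unadjusted p = 0.0547).

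**Figure D4:**
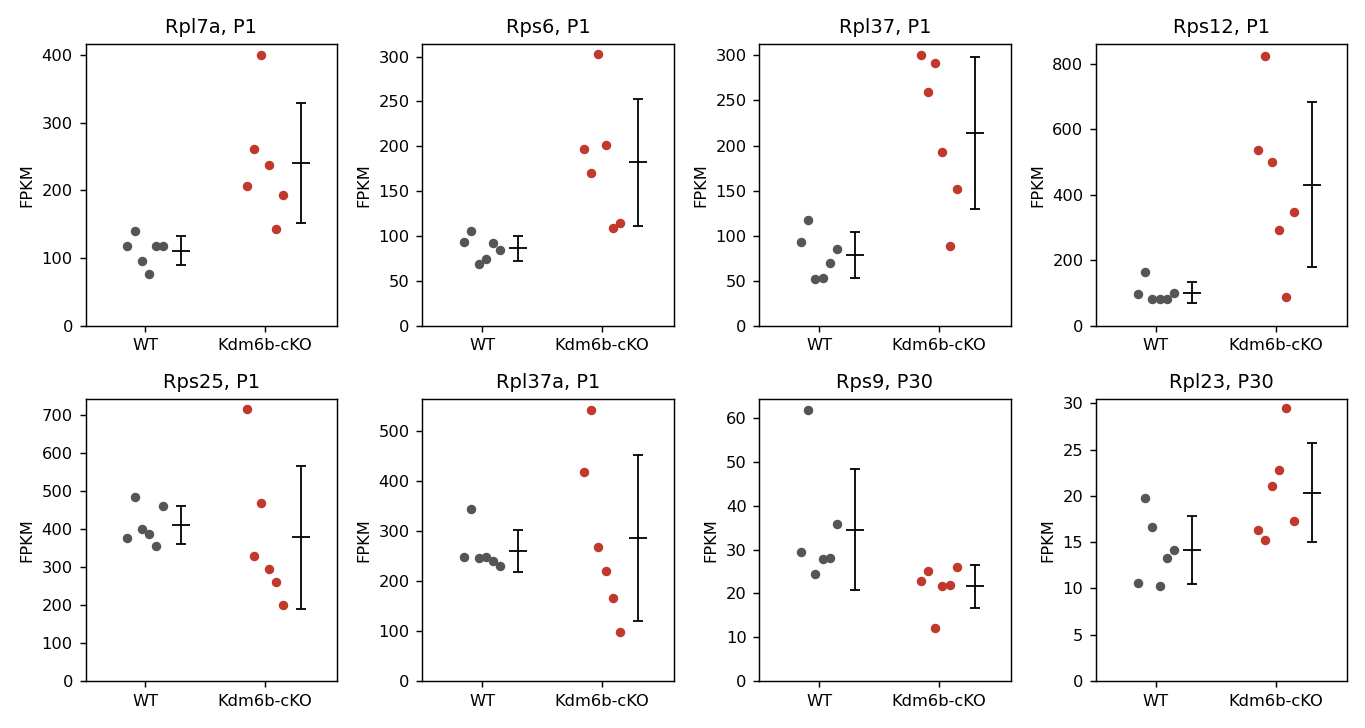
FPKM of 8 RP genes in every library, 6 of them at P1 and 2 at P30, on linear axes from 0; points are libraries, and the bar to the right of each group is the mean with its SD (n = 6). For Rpl7a and Rps6 at P1 the red points all lie above the grey ones, for Rps25 and Rpl37a they lie on both sides, and for Rps9 and Rpl23 at P30 the groups overlap.

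The stalk genes and the genes of special structure had values like the rest at P1. Rplp0 was 253 ± 61.2 FPKM in WT and 438 ± 146 in Kdm6b-cKO, Rplp1 409 ± 142 and 1039 ± 675, and Rplp2 250 ± 57.3 and 521 ± 247 (log2 0.75 ± 0.29, 1.11 ± 0.45 and 0.94 ± 0.33). For all 3, 4 of the 6 Kdm6b-cKO libraries lay above WT. Rpsa, which also serves as a laminin receptor, ran from 76.7 through 132 to 177 FPKM in WT and from 107 through 273 to 746 in Kdm6b-cKO (log2 1.22 ± 0.45). Rps27a, whose protein is made as a fusion with ubiquitin, ran from 108 through 145 to 203 FPKM in WT and from 152 through 366 to 511 in Kdm6b-cKO (log2 1.07 ± 0.30). The smallest adjusted p of these by limma was 0.185, that of Rps27a.

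A few RP genes had other patterns. Rps25, a small subunit protein needed for translation from internal entry sites (chr9:44215797-44226152), was 355 to 484 FPKM in WT with a median of 394, and 201 to 716 in Kdm6b-cKO with a median of 312. Of the Kdm6b-cKO libraries, 4 were below the lowest WT library and only library 0 was above the highest (log2 -0.24 ± 0.30, unadjusted p = 0.431). Rpl37a was 230 to 345 FPKM in WT and 98.7 to 542 in Kdm6b-cKO (log2 -0.06 ± 0.35), with libraries 0 and 1 above and libraries 3, 4 and 5 below the WT range. Rpl22, a large subunit protein with an extra-ribosomal part in T cell development, was 38.1 to 59.2 FPKM in WT and 28.2 to 94.3 in Kdm6b-cKO (log2 0.10 ± 0.30).

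Paralogs and poorly measured members were the other exceptions. Rpl32l, listed at chr10:19868726-20001396 within a wider transcript bundle, was 0, 0.685, 4.63, 4.08, 3.26 and 2.45 FPKM in WT libraries 0 to 5 and 0, 0, 0, 1.88, 0.979 and 0 in Kdm6b-cKO libraries 0 to 5 (unadjusted p = 0.0371). Its higher values stood in the WT libraries with olfactory receptor signal, and its parent gene Rpl32 was 390 ± 136 FPKM in WT and 897 ± 472 in Kdm6b-cKO (log2 1.08 ± 0.39, unadjusted p = 0.0148). Reads of such near-identical copies can be assigned to either, so Rpl32l is uncertain. Rps4l was 60.9 ± 14.8 and 67.4 ± 27.1 FPKM (log2 0.04 ± 0.33) beside its X-linked parent Rps4x at 185 ± 52.5 and 381 ± 219 (log2 0.85 ± 0.39). Rps27l, a p53 target, was 135 ± 48.9 and 238 ± 91.0 FPKM (log2 0.81 ± 0.32), and its parent Rps27 was 12.7 to 24.3 FPKM in WT and 2.51 to 37.6 in 5 Kdm6b-cKO libraries, with 568 FPKM in Kdm6b-cKO library 4.

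Rpl26 and Rpl30 had values at or near 0 next to high ones. Rpl26 was 20.2, 14.1, 23.6, 0.00724, 0.00576 and 0.00601 FPKM in WT libraries 0 to 5 at P1, and 0, 61.1, 18.6, 61.1, 37.9 and 0.00483 in Kdm6b-cKO libraries 0 to 5. Rpl30 was 7.05 to 80.6 FPKM in WT and was listed at 0 in Kdm6b-cKO library 0 with 61.2 to 251 in the other 5. Such values in genes that every cell uses may be failed estimates, and no direction is read from either. Both are still counted among the higher RP genes at P1 and P30, and Rpl26 among those more than 2-fold higher at P1. The 3 genes that were not tested, Rpl3l, Rpl10l and Rpl39l, paralogs known from muscle or testis, were listed at 0 in 9, 8 and 8 of the 12 P1 libraries and had at most 6.44 FPKM.

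At P30, no shift of the RP genes between genotypes was detected. The median FPKM over the 82 genes was 18.7, 46.0, 24.6, 24.8, 24.1 and 26.0 in WT libraries 0 to 5, and 16.2, 18.7, 32.7, 35.4, 52.1 and 18.9 in Kdm6b-cKO libraries 0 to 5. The groups overlapped throughout. The median log2 fold change of the 79 RP genes tested was -0.05, the same as the -0.05 of all 13289 genes, with 35 higher (45.2% of all genes) and 44 lower (54.8% of all genes). At an unadjusted p under 0.05, 1 RP gene was higher, against 5.34% of all genes, and 3 were lower, against 7.37%. None passed an adjusted p of 0.05 by limma (0.0828% of all genes higher and 0.286% lower did), the smallest being 0.295; with the 2-fold limit as well, 0.0527% of all genes were called higher and 0.226% lower. More than 2-fold lower was no RP gene, against 5.14% of all genes, and past 2-fold in the other direction was only Rpl30, against 2.33%, whose near-zero values (0.000345 to 26.1 FPKM in WT and 0.000764 to 53.3 in Kdm6b-cKO) may again be failed estimates and give no direction (log2 1.78 ± 1.56). In no RP gene were the 6 libraries of a genotype apart (0.888% and 1.05% of all genes). The direction of the group rested on single libraries: the median was 0.13 with 54 higher without WT library 1, and -0.24 with 15 higher without Kdm6b-cKO library 4.

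The P30 libraries separated by Rn45s instead. WT library 0 and Kdm6b-cKO libraries 0, 1 and 5, those under 1000 FPKM of Rn45s, had RP medians of 16.2 to 18.9 FPKM. The other 5 WT libraries had 24.1 to 46.0 and the other 3 Kdm6b-cKO libraries had 32.7 to 52.1. In 27 of the 79 RP genes all 4 low libraries were below all 8 others, against 8.77% of all genes, and in no RP gene were they all above, against 6.13%. In a limma fit with genotype and this split, 68 of the 79 RP genes were higher with high Rn45s (median log2 difference 0.85, against -0.08 for all genes), 43 of them at an adjusted p under 0.05, against 17.7% of all genes. The 6 with the smallest p were Rpl32l (log2 1.80 ± 0.29), Rpl17 (1.82 ± 0.31), Rpl28 (1.58 ± 0.28), Rpl13a (1.76 ± 0.31), Rpsa (2.01 ± 0.36) and Rpl36 (1.97 ± 0.35). Rpl32l is uncertain here too, since its reads and those of its parent Rpl32 (1.62 ± 0.31) can be assigned to either. Rps9, Rps13 and Rpl22 were among those with a difference under its standard error. With log2 Rn45s as the term, 52 RP genes were higher and 2 lower at an adjusted p under 0.05 (19.5% of all genes higher and 19.9% lower).

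The genotype comparison at P30 changed with that split. With the split as a term the genotype median of the RP genes was 0.27, with 57 of 79 higher and 3 genes at an adjusted p under 0.05: Rpl23 and Rpl4 higher, against 5.18% of all genes, and Rps27 lower, against 5.47%. Within the 8 libraries high in Rn45s (5 WT, 3 Kdm6b-cKO) the median was 0.40 and 61 of 79 were higher, and within the 4 low ones (1 WT, 3 Kdm6b-cKO) it was -0.17 with 27 of 78 higher. The 3 Kdm6b-cKO libraries high in Rn45s had 1940000 to 2660000 effective reads and the 9 others 5110000 to 8300000, so depth and Rn45s cannot be told apart within that genotype. Rn45s did not differ between genotypes beyond its spread (450 to 4027 FPKM in WT and 175 to 25878 in Kdm6b-cKO, exact permutation p = 0.755).

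The P30 members with the smallest p had small differences. Rps9, the counterpart of bacterial S4, was 29.5, 61.9, 24.4, 27.9, 28.1 and 35.8 FPKM in WT and 22.9, 25.2, 12.1, 21.6, 21.8 and 26.0 in Kdm6b-cKO. Only Kdm6b-cKO libraries 1 and 5 overlapped the lower WT values (log2 -0.64 ± 0.24, exact permutation p = 0.00649, limma adjusted p = 0.295). Rps27 was 10.0 to 25.4 FPKM in WT and 3.13 to 15.2 in Kdm6b-cKO (log2 -0.91 ± 0.36, adjusted p = 0.317), and Rps2, the mammalian counterpart of bacterial S5, was 18.6 to 34.1 and 14.0 to 23.4 FPKM (log2 -0.43 ± 0.19). Rpl10, which joins the large subunit late in the cytoplasm, was 45.0 ± 10.3 and 33.6 ± 4.97 FPKM (log2 -0.39 ± 0.19). Rpl23, which binds MDM2 in addition to its place in the large subunit, was the gene that was higher: 10.2 to 19.8 FPKM in WT and 15.2 to 29.5 in Kdm6b-cKO (log2 0.53 ± 0.21, adjusted p = 0.317).

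The RP genes with the highest P30 level in WT followed the split by Rn45s within Kdm6b-cKO. Rps15, with 85.7 to 262 FPKM in WT, was 62.1 to 64.3 in Kdm6b-cKO libraries 0, 1 and 5 and 188 to 287 in libraries 2 to 4. Rpl13a, a subunit of the GAIT silencing complex as well, was 55.9 to 66.6 FPKM in the former and 247 to 284 in the latter, with 62.5 to 301 in WT. Rpl35 and Rpl36 were 44.3 to 246 and 42.2 to 209 FPKM in WT and 40.0 to 213 and 27.1 to 257 in Kdm6b-cKO. Rps18 was even in WT, 89.2 to 108 FPKM, and 57.4 to 144 in Kdm6b-cKO. Rplp0, Rplp1 and Rplp2 had P30 means of 25.7 ± 7.97, 75.3 ± 65.7 and 53.4 ± 22.9 FPKM in WT and 20.2 ± 5.87, 62.3 ± 56.3 and 47.7 ± 20.3 in Kdm6b-cKO.

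The genotype effect at P30 was set against that at P1 in a fit over all 24 libraries, with levels left uncompared because the tables were normalized separately. The effect was lower at P30 in 73 of the 79 RP genes, with a median of -1.08 (log2) against 0.13 for the 12644 genes tested. At an unadjusted p under 0.05, 40 RP genes had a lower effect at P30, against 6.31% of all genes, and none a higher one, against 6.88%. None passed an adjusted p of 0.05 by limma (0.0% of all genes had a lower and 0.00791% a higher effect), the smallest being 0.114 for Rpl7a (-1.55 ± 0.39), followed by Rps9 (-1.49 ± 0.39), Rps3 (-1.22 ± 0.35), Rps6 (-1.21 ± 0.35) and Rps2 (-1.20 ± 0.36). The Rn45s levels differed between libraries within each age, and were not compared between the ages. With log2 Rn45s, centred within age, as a covariate the median was -0.91 and 4 RP genes passed with a lower effect at P30, Rpl15, Rpl7a, Rps6 and Rps9, against 1.13% of all genes.

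Genes that work with the ribosome were described beside the RP genes. At P1, Fau, which encodes a further protein of the small subunit, was 62.1 ± 28.8 FPKM in WT and 118 ± 62.1 in Kdm6b-cKO (log2 0.90 ± 0.39, limma adjusted p = 0.308). Rps3a1, whose symbol falls outside the rule, was 178 ± 46.6 and 382 ± 175 FPKM (log2 0.99 ± 0.33). In Rpl22l1, a paralog of Rpl22, all 6 Kdm6b-cKO libraries lay above WT, at 80.9 ± 31.7 and 159 ± 44.4 FPKM (log2 1.06 ± 0.31, exact permutation p = 0.00216, limma adjusted p = 0.191), while Rpl36al had a log2 fold change of 0.74 ± 0.36 and Rpl7l1 of 0.07 ± 0.26. Of 17 elongation factors and other mRNAs with TOP starts, 16 were higher (median log2 0.71, 11 at an unadjusted p under 0.05), among them Tpt1 at 140 ± 45.9 and 386 ± 160 FPKM. Of 8 noncoding genes that host snoRNAs, many with TOP starts, 6 were higher (median 1.25), with Snhg5 at 30.1 ± 5.70 and 89.7 ± 34.1. The median was 0.07 over 19 initiation factors, 11 of them higher, 0.26 over 33 ribosome biogenesis genes, 20 of them higher, and 0.19 over 15 genes of RNA polymerase I transcription, 12 of them higher. None of these genes passed an adjusted p of 0.05 by limma at P1.

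**Figure D5:**
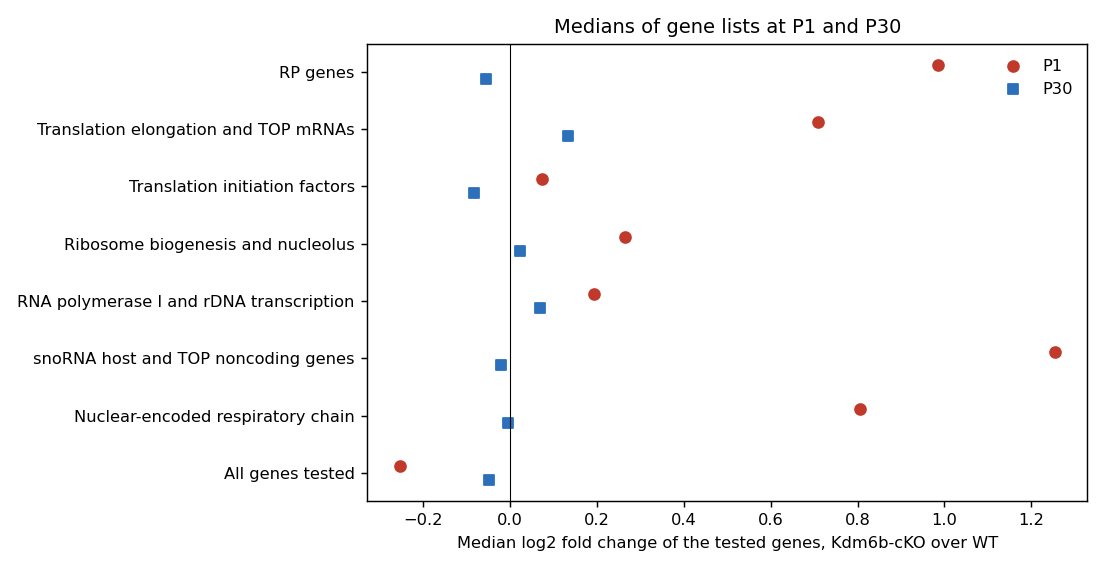
Median log2 fold change of Kdm6b-cKO over WT over the tested genes of 6 gene lists, red circles for P1 and blue squares for P30, beside the RP genes and all genes tested. At P1 the RP genes (0.99), the snoRNA host genes (1.25) and the respiratory chain genes (0.81) stand to the right of the initiation factors (0.07) and of all genes (-0.25), and at P30 the 6 lists plotted lie between -0.08 and 0.13.

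Genes outside the ribosome had higher values at P1 as well. All 55 nuclear-encoded respiratory chain genes tested, which share short, abundant mRNAs with the RP genes, were higher (median log2 0.81), 35 of them at an unadjusted p under 0.05, with Ndufc1 at 413 ± 119 and 1241 ± 763 FPKM. The median was 0.00 over the 1900 other genes with coding transcripts under 1000 bases, 0.42 over the 827 other genes averaging 100 FPKM or more, and 0.62 over the 463 that were under 1000 bases and averaged 50 FPKM or more, of which 86.8% were higher. At an unadjusted limma p under 0.05, 15.5%, 29.7% and 41.3% of these sets, in that order, were higher. The RP genes had a median coding transcript of 723 bases. Malat1, a long noncoding RNA kept in the nucleus, was higher too, at 2934 to 7366 FPKM in WT and 8009 to 27202 in Kdm6b-cKO (exact permutation p = 0.00216, limma adjusted p = 0.216), and its part in the RP values was not tested. At P30, 27 of the 55 respiratory chain genes were higher (median -0.01), and Malat1 was listed at 0 in all 12 libraries.

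Markers of other cell types had the following values beside the RP genes. At P1, 63.2% of all genes tested were lower in Kdm6b-cKO, and the median log2 fold change of all genes was -0.25. Lower were 7 of 8 tested oligodendrocyte lineage markers (median log2 -1.01), 6 of 8 astrocyte markers (-0.66) and 7 of 8 microglia markers (-0.87). So were 6 of 8 endothelial and mural markers (-0.51) and 6 of 10 GABAergic markers (-0.19). None of these passed an adjusted p of 0.05 by limma. The glutamatergic markers, which the Emx1 lineage should carry, had a median of -0.10, with 6 of 10 lower. They summed to 447 to 720 FPKM in WT and 570 to 981 in Kdm6b-cKO. The summed oligodendrocyte markers were 44.4 to 74.95 FPKM in WT and 29.7 to 50.4 in Kdm6b-cKO. At P30 all 10 oligodendrocyte lineage markers were lower (median -0.86, 3 at an adjusted p under 0.05; summed 242 to 453 FPKM in WT and 131 to 178 in Kdm6b-cKO), and all 8 tested GABAergic markers were higher (median 1.71, none at an adjusted p under 0.05; summed 32.7 to 393 and 152 to 323 FPKM). Of 5 tested microglia markers at P30, 4 were higher (median 1.52, 2 at an unadjusted and none at an adjusted p under 0.05), summing to 12.2 to 33.9 FPKM in WT and 19.1 to 44.9 in Kdm6b-cKO over all 8 listed. Of all genes tested at P30, 54.8% were lower, 0.286% of all at an adjusted p under 0.05, and 45.2% were higher. The part of these marker shifts in the RP values was not tested.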

How the data were processed

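RNA of sorted SUN1-GFP nuclei was made into libraries with the VAHTS Universal V10 kit. Per the submitters' notes, the authors used HISAT2, Cuffdiff and mm9, with no versions given in the sources used here. The deposited values are FPKM per gene and library, scaled by the authors, in a table for each age. The tables of the authors' own comparison (group values, fold changes, p and q values) were not used except for gene positions. The log2 of FPKM plus a pseudocount of 0.1 was fitted by genotype, separately for each age, in limma 3.58.1 (R 4.3.3; trended prior, two-sided tests). Genes averaging below 1 FPKM were left out, and p-values were adjusted by Benjamini-Hochberg across the remaining genes. Called genes are those with adjusted p below 0.05 that also differ more than 2-fold. Single values were compared by exact two-sided permutation over all 924 splits. Python 3.11.15, pandas 2.3.3, numpy 2.4.6 and matplotlib 3.10.9 served for all else. The limma script was tested on simulated data.

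Effective depth was estimated from the FPKM steps of genes with a single annotated transcript, with fragments of 200 bases assumed. Between 61.4% and 71.5% of low values in a library came within 0.05 of whole reads, so no count test was run. Over 17 RP genes with a single transcript the median estimate was 20.7 (Kdm6b-cKO library 5) to 688 reads at P1 and 46.5 to 257 at P30, which limits the precision of the shallow libraries. Positions come from the files (mm9) and promoter sequences from RefSeq (GRCm38.p6). The genes, lists and alternatives were chosen with earlier results of these data known. Named genes are, at each age, the 5 RP genes with the smallest p and the 5 with the highest WT mean, Rplp0, Rplp1, Rplp2, Rpsa and Rps27a, paralogs with their parents, called genes, and genes against the majority at an unadjusted p under 0.05; at most 3 genes are named of each other list. Rpl17, Rpl22, Rpl37a, Rps25, Rps3a1, Rpl7l1, Rpl26, Rpl28, Rpl30, Rps3, Rps13, Rpl4 and Rpl15 were named after their values were seen.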

Additional observations from a re-analysis of the deposited data

Results flagged for a closer look

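A library was noted where its gap to the nearest of the other 5 in its group exceeded the 95% critical value of Dixon's test for 6 samples. Of 152 groups of values examined, over the medians, Rn45s, depth, Kdm6b and the named genes, 28 met this, and chance gives about 1 in 20. Most are the same library: at P30, WT library 1 held the RP median of 46.0 FPKM against 18.7 to 26.0 in the other WT libraries, and the high value of Rps12 (70.6), Rpl35 (246), Rpl41 (134), Rps29 (94.9), Rps19 (143), Rplp0 (40.7), Rplp1 (208), Rplp2 (96.1), Rpl32 (142), Rps4x (28.8), Rps25 (83.4), Rps9 (61.9), Rps15 (262), Rpl13a (301), Rpl36 (209), Rpl26 (8.19) and Rpl30 (26.1). That library also had the highest Rn45s of the WT group, 4027 FPKM, and 6010000 effective reads, within the range of the others.

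At P30, Kdm6b-cKO library 4 stood apart for Rpl38 (181 FPKM), Rplp1 (172), Rps3 (25.5) and Rpl30 (53.3), with Rn45s at 25878 FPKM and 1940000 effective reads, the highest and the lowest of that age. WT library 3 was high for Rpl7a (16.3), Kdm6b-cKO library 2 was low for Rps9 (12.1), and Kdm6b-cKO library 3 was high for Rpl26 (34.2 against at most 0.00274 in the other 5).

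At P1, Kdm6b-cKO library 4 had 568 FPKM of Rps27 against 2.51 to 37.6 in the other 5, although its RP median of 183 FPKM was the lowest of its group. WT library 1, the deepest at that age, was high for Rps12 (163 FPKM) and Rpl37a (345). The part of Rn45s, depth and library preparation in these values was not tested.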

How the results depend on the processing

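No paired analysis was possible because the libraries in the tables are numbered 0 to 5 and are not matched to the replicate numbers of the labels. At P1 the RP median stayed above 0 under every alternative run, from 0.42 to 1.14. Within the libraries with olfactory receptor signal it was 0.42, not above the 0.45 of all genes. In the leave-one-out fits it ran from 0.84 to 1.14, with 74 to 77 genes higher. Of these, 54 to 70 were at an unadjusted p under 0.05, against 4.82% to 9.63% of all genes. After quantile normalization the RP median was 0.43, against -0.12 for all genes. There 28 RP genes were higher at an unadjusted p under 0.05, against 5.5% of all genes. The count was 22 with the olfactory receptor split as a term (4.1% of all genes). It was 0 within the libraries without signal (1.04%) and 34 without those above 1000 FPKM of Rn45s (9.36%). Weights by effective depth called 2 genes higher (1.2% of all genes) and leaving out a library 0 to 3. Scaling to the sum of FPKM moved the median of all genes from -0.25 to -0.61 and that of the RP genes to 0.59. This scaling, the depth limit and the Rn45s limit were chosen after seeing the data.

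At P30 the genes higher numbered 8 with weights estimated by limma (5 lower at an adjusted p under 0.05, 1 called, against 8.52% and 2.48% of all genes), 14 with depth weights, 57 with the Rn45s split as a term (3 and 1 called lower, 2.75% of all genes) and 61 among libraries high in Rn45s (3 and 2 called, 1 in each direction, against 2.73% and 3.82%), and log2 Rn45s as a covariate gave 2 at an adjusted p under 0.05, 1 in each direction, against 3.57% and 4.63%. The RP median was -0.43 with limma weights, against -0.01 for all genes. There 32 RP genes were lower at an unadjusted limma p under 0.05, against 17.5% of all genes. Among libraries high in Rn45s the RP median was 0.40, against -0.07 for all genes. Leaving out a library gave medians of -0.24 to 0.13, with 15 to 54 genes higher and 0 called. For the difference between ages, quantile normalization gave a median of -0.54, with 12 genes lower at an unadjusted p under 0.05 (4.46% of all genes). Limma weights gave 61 such genes (10.3%) and 16 called lower (1.61%), and log2 Rn45s gave 4 called lower (1.12%). Leaving out a library gave medians of -1.27 to -0.90 and 0 to 1 called. In those fits 28 to 55 genes were lower at an unadjusted p under 0.05, against 4.78% to 8.24% of all genes. The cause of these shifts was not tested.

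Of the 950 values of named genes under alternatives, 20 changed sign. Within the libraries with signal, P1 values were -0.071 for Rps19, -0.23 for Rplp1, -0.048 for Rps27l and -1.36 for Rps4l. Rps4l was also -0.25 after quantile normalization, -0.40 with the split as a term, -0.35 on the sum scaling and -0.26 without high Rn45s, and -0.093 to 0.34 when a library was left out. Rpl37a was 0.014 within the libraries without signal, 0.073 with at least 500000 reads, and -0.29 to 0.20 when a library was left out, as was Rps27 from -0.40 to 1.16.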
